A study of Drosophila melanogaster with 22 samples.

Results

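Nazo, Vago and Sting are genes of the antiviral response of Drosophila. Their messenger RNA levels were followed in S2 cells, an established blood cell-like line, in which subunits of the RNA exosome had been targeted by RNA interference. The members were the probe sets whose gene symbol in the platform annotation, or older CG number, is one of the 3 names. One probe set was found for each gene, so the account covers 3 of 18952 probe sets, or 3 of the 11982 genes that a probe set names alone. Nazo and Vago were chosen by their array levels, because these moved strongly between the groups, and their changes are therefore described without a test. Sting was added for its place in the same pathway, and its changes were tested.

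The study used 22 one-colour Affymetrix arrays in 10 groups. S2 cells were grown in HyQ CCM3 medium at 27 °C in 25 cm2 flasks, received double-stranded RNA (dsRNA) at 30 µg/ml on days 0, 1 and 3, and were lysed on day 5, and 6 µg of total RNA was labelled per array. The control cells received dsRNA against GFP, a gene that flies lack, so that controls and depletions alike had been exposed to dsRNA. The other 9 groups received dsRNA against a cap subunit of the exosome (Csl4, Rrp4 or Rrp40), a ring subunit (Mtr3, Rrp46 or Ski6), an exonuclease (Dis3 or Rrp6), or Rrp47, the partner protein of Rrp6. Each group had 2 arrays except Rrp4, which had 4. Depletion arrays are labelled as biological replicates and GFP arrays as controls 1 and 2. Whether they were separate cultures is not given in the sources used here, so p-values measure the spread between arrays, which may be technical.

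Arrays of a group correlated at 0.94 to 0.986. Trimmed means of the deposited intensities were 500 on the 4 Rrp4 arrays and 125.9 to 345.6 on the other 18. The ratio of poly-A spikes to hybridization spikes set the same 4 arrays apart, with log2 values of -4.77 to -2.55 against 0.67 to 2.10 on the other 18. All arrays were therefore quantile normalized, and levels below are log2 of the normalized signal. Of the 9 targeted genes, 2 were lower in their own arrays (Dis3 and Rrp6), 4 were higher (Csl4, Rrp40, Ski6 and Rrp47) and 3 did not pass the test. The probe set signal of the targeted gene thus went against the label in 4 groups, and every group is named here by its label alone. Whether these probes lie inside the dsRNA sequence is not given in the sources used here. Of 9 hemocyte markers, 7 lay above the filter on dim probe sets, led by the collagen gene vkg at a mean log2 level of 13.11. The tested markers of other cell types reached at most 8.09, for the germline gene ovo. The hemocyte markers Col4a1 (12.98), Hml (11.39) and srp (10.97) were above that level too, while eater (7.25), Pxn (5.96) and He (5.03) were below it. NimC1 and Sr-CI were below the filter.

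The exosome breaks down RNA from the 3' end, in the nucleus and the cytoplasm, and matures several stable RNAs. In flies, cGAS-like receptors sense foreign RNA and make cyclic dinucleotides, which bind the membrane protein Sting. Sting signals through the kinase IKKbeta to the NF-kappaB factor Relish, which induces antiviral genes, Nazo among them. Nazo restricts picorna-like viruses in flies. Vago encodes a secreted, cysteine-rich peptide that is induced by infection through the RNA interference enzyme Dcr-2 and limits viral load. In mosquitoes, Vago acts on other cells through the JAK-STAT pathway.

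Nazo, the effector gene at the end of the Sting branch, had the widest range of the 3 genes. Its log2 level was 2.84 and 6.55 on the GFP arrays. The 20 depletion arrays ran from 5.23 to 10.45 with a median of 8.23. On 16 of these 20 arrays Nazo was above both GFP arrays, and these 16 were all the arrays of 8 of the 9 depletions. The exception was Rrp4, with 5.23, 6.03, 5.82 and 5.76, which lay between the GFP arrays. That place depended on scaling. As deposited, where the Rrp4 arrays are brighter throughout, they read 67.25, 122.1, 102 and 102.5, above both GFP arrays (4.6 and 57.08). The Rrp4 difference was then 2.57, while the median of all probe sets was 1.58 above GFP.

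The ring subunits Ski6 and Mtr3 gave the highest Nazo levels. The arrays labelled Ski6 read 10.45 and 10.03, and those labelled Mtr3 read 9.76 and 10.10, so that the groups overlapped. The arrays labelled Dis3 followed at 9.47 and 9.67. Next came Rrp47 with 9.21 and 8.93 and Csl4 with 9.01 and 9.04, which overlapped each other.

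After a gap of 1.55 between group means came a lower set of 3 groups. Nazo was at 7.43 and 7.52 on the arrays labelled Rrp6, at 7.23 and 7.19 on those labelled Rrp46, and at 7.18 and 6.90 on those labelled Rrp40. The arrays of these 3 groups did not overlap, but the step from Rrp46 to Rrp40 was only 0.17, against an SD of 0.14. The order did not follow the layers of the complex. The ring subunit Rrp46 sat 2.71 and 3.03 below the ring subunits Mtr3 and Ski6, and the cap subunit Csl4 sat 1.98 above the cap subunit Rrp40. Rrp6 and its partner Rrp47 were 1.59 apart.

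**Figure D1:**
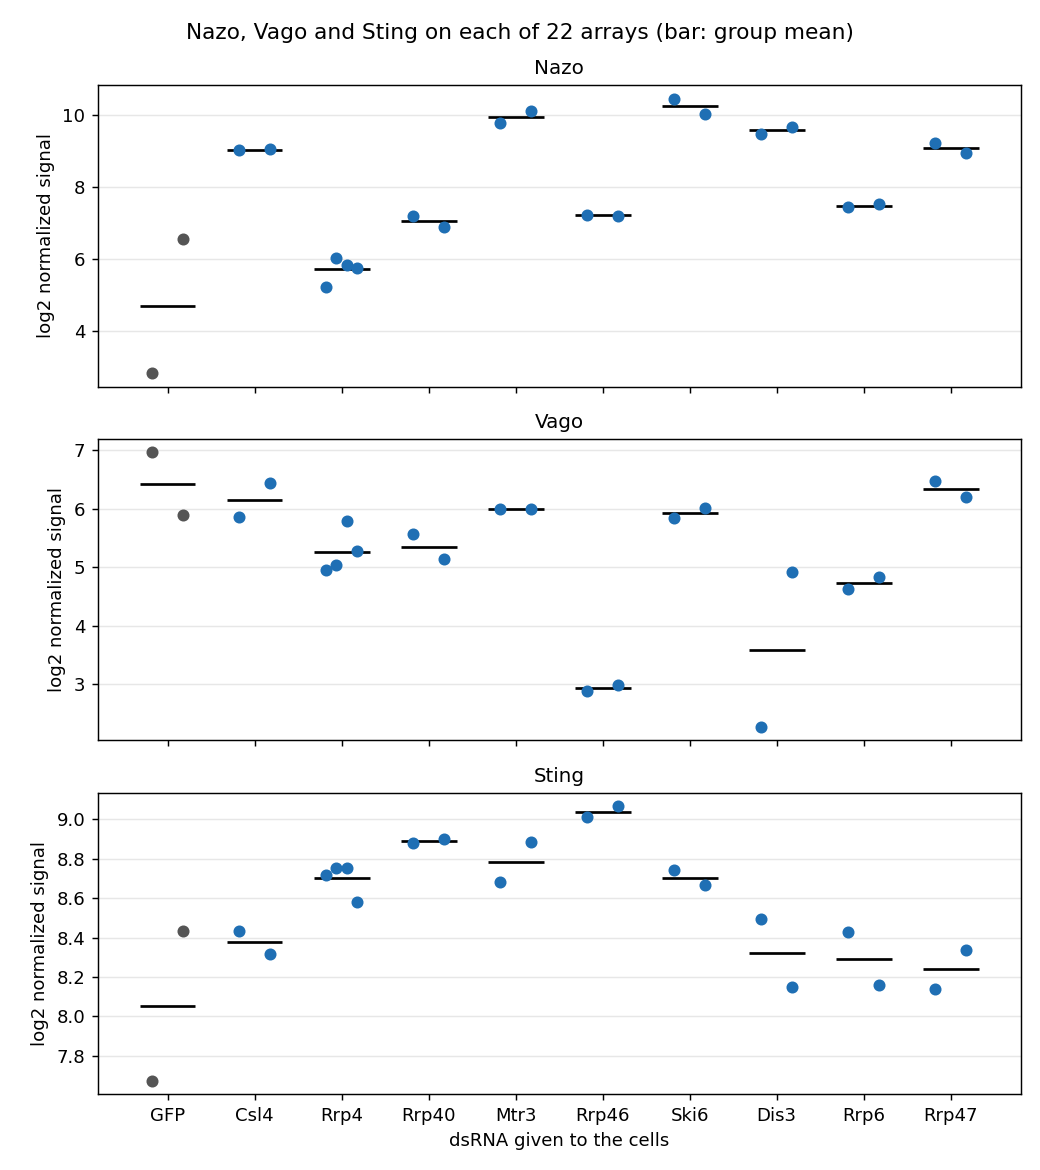
Each point is 1 array, placed by the dsRNA its cells received (x axis) and by the log2 normalized signal of Nazo, Vago or Sting (y axis, a separate scale per panel), and bars are group means. Nazo is far apart on the 2 GFP arrays (2.84 and 6.55), Vago falls lowest on the Rrp46 arrays and 1 Dis3 array, and Sting moves over less than 1.5 log2 units.

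Against the GFP mean of 4.69 ± 2.62 (SD, n = 2), Nazo differed most on the arrays labelled Ski6, by 5.54 ± 0.68 on the log2 scale (SE of the fit). The difference was 5.23 for Mtr3, 4.87 for Dis3, 4.38 for Rrp47 and 4.33 for Csl4. It was 2.79 for Rrp6, 2.52 for Rrp46 and 2.35 for Rrp40, each with the same SE, and 1.02 ± 0.58 for Rrp4. The mean over the 9 depletions was 3.67 ± 0.50 above GFP. No fold is given for these, since the first GFP array lay far under the level of the filter on dim probe sets (4.67) and was not shown to be above background. In that comparison 21.9% of all 9385 probe sets tested passed an adjusted p of 0.05 in either direction, 11.7% higher and 10.3% lower. Nothing is read from this for Nazo, which was chosen for its change.

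The sizes depend on the control arrays, which disagreed on Nazo more than on almost any other gene. They were 3.71 apart, which is the 99.9th percentile of all probe sets tested, where the median gap was 0.30. In the deposited intensities the probe set read 4.6 on the first GFP array and 57.08 on the second. Without the first GFP array the mean difference was 1.82, and without the second it was 5.52. Taking the second GFP array alone as control, Nazo was 3.69 higher for Ski6 and 3.38 for Mtr3, yet a mere 0.50 for Rrp40 and 0.67 for Rrp46, and it was 0.84 lower for Rrp4. The depletion means do not use GFP. Their range was 4.53, or 23.1-fold, at the 99.6th percentile of all probe sets, and arrays of the same depletion differed little (pooled SD 0.23). A high percentile follows in part from the choice of Nazo for moving between groups, so nothing is read from it.

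One technical signal was also uneven. The probe sets for 18S ribosomal RNA, which read ribosomal RNA carried into the labelled sample, were at log2 means of 13.57 for Ski6, 13.62 for Dis3, 12.85 for Mtr3 and 13.35 for Rrp6. They were at 11.23 for Csl4, 10.51 for Rrp47 and 9.52 for Rrp46. They were lowest for Rrp40 at 7.70 and for Rrp4 at 7.61. The GFP arrays read 7.97 and 9.90. The first GFP array was thus the lower of the pair for both Nazo and 18S. The part of 18S in the Nazo levels was not tested.

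Vago, the secreted peptide gene, went the other way in part of the groups. It was dim, at a mean log2 level of 5.27. The GFP arrays read 6.96 and 5.89, and the 20 depletion arrays ran from 2.28 to 6.47 with a median of 5.42. No depletion array was above both GFP arrays and 14 were below both. How many other probe sets did so was not counted, and the 21.9% of all probe sets called refers to the difference of means. The 14 included every array of Rrp4, Rrp40, Rrp46, Dis3 and Rrp6 and 1 of 2 arrays of Csl4 and of Ski6.

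The lowest Vago level was reached with the ring subunit Rrp46, at 2.89 and 2.99. These arrays placed Vago at the 23rd and 24.1st percentile of their signals, against the 66.7th and 60th on the GFP arrays. The Dis3 arrays disagreed, with 2.28 on the first and 4.91 on the second, and this gap of 2.63 was at the 99.3rd percentile of all probe sets. The arrays labelled Rrp6 read 4.62 and 4.84. Rrp4 gave 4.95, 5.03, 5.78 and 5.27, and Rrp40 gave 5.56 and 5.14. These last 2 groups overlapped each other and lay between Rrp6 and the groups nearest to GFP.

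The other 4 depletions were close to the controls. Vago was at 6.47 and 6.19 with Rrp47, at 5.86 and 6.43 with Csl4, at 5.99 and 6.00 with Mtr3 and at 5.83 and 6.00 with Ski6. Together with GFP these groups formed an unbroken chain of overlaps, with steps of 0.08 to 0.18 between neighbouring means. In bulk samples such as these, fewer cells that express a gene and less RNA per cell cannot be told apart.

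Against the GFP mean of 6.42 ± 0.76 (SD, n = 2), the Vago difference was -3.48 ± 0.59 with Rrp46 and -2.83 with Dis3. Both Rrp46 arrays, the first Dis3 array and the first Rrp6 array (4.62) lay under the filter level. No fold is therefore given, and the sizes in these groups depend on how dim values are treated. The difference was -1.69 with Rrp6, -1.16 ± 0.51 with Rrp4 and -1.07 with Rrp40. It was within 1 SE of 0 with Csl4 (-0.27), Mtr3 (-0.43), Ski6 (-0.50) and Rrp47 (-0.09). The mean over the 9 depletions was -1.28 ± 0.44. Leaving out the second Dis3 array moved the Dis3 difference to -4.14, and leaving out the first moved it to -1.51. Without the first GFP array the mean difference was -0.74, and Vago was then higher rather than lower in Csl4 (0.26), Rrp47 (0.44), Mtr3 (0.11) and Ski6 (0.03).

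The direction in Rrp4 depended on scaling. With the values as deposited, where the Rrp4 arrays are brighter throughout, Vago was 0.49 above GFP with Rrp4, while the median of all probe sets was 1.58 above it. It was also 0.66 higher with Mtr3, 0.68 with Ski6, 0.48 with Rrp47 and 0.07 with Csl4, against medians of 0.97, 1.02, 0.59 and 0.30. Relative to these medians Vago was lower in all of these groups. The ranking of Rrp46 and Dis3 as the lowest does not rest on this shift, since the medians of all probe sets there were 0.14 and -0.19. The place of Dis3 does rest on its first array (2.28), since its second (4.91) was above both Rrp6 arrays (4.62 and 4.84).

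Nazo and Vago were thus ordered differently across the same arrays. Dis3 combined one of the highest Nazo levels with the lowest single Vago reading, and Mtr3 and Ski6 combined the highest Nazo levels with Vago levels close to GFP. Rrp46 had the lowest Vago mean and a Nazo mean of 7.21, among the lower groups. Over the 10 group means Pearson's r was 0.025 between Nazo and Vago, 0.118 between Nazo and Sting and -0.398 between Vago and Sting. These correlations are descriptions over groups that share 1 normalization, with 10 points each.

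**Figure D2:**
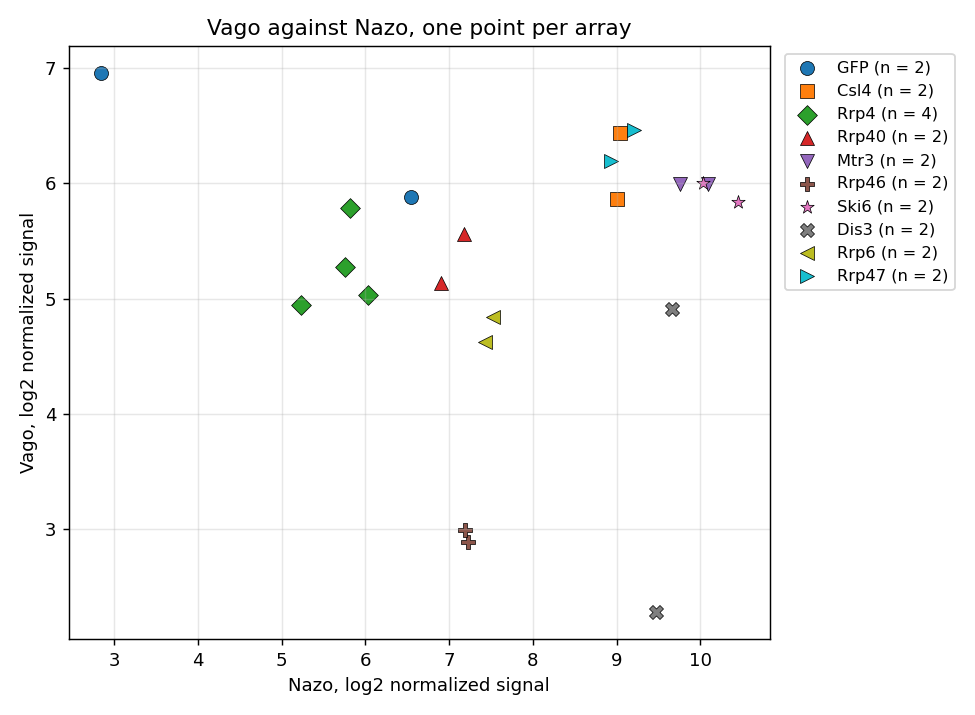
Each point is 1 array, with the log2 normalized signal of Nazo on the x axis and of Vago on the y axis, and the shape and colour give the dsRNA. Points do not fall on a line: the Rrp46 and Dis3 arrays lie low at Nazo levels near 7.2 and 9.6, and the Mtr3 and Ski6 arrays lie at the right with Vago near 6.

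Sting, the receptor for cyclic dinucleotides, was the brightest of the 3 and moved least. The GFP arrays read 7.68 and 8.43, and the 20 depletion arrays ran from 8.14 to 9.07 with a median of 8.67. On 13 of 20 depletion arrays Sting was above both GFP arrays and on 0 below both. How many other probe sets did so was not counted. Averaged over the 9 depletions Sting rose by 0.54 ± 0.15 on the log2 scale, or 1.45-fold (limma, adjusted p = 0.014). In this test of means 21.9% of all probe sets were called.

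Sting was higher in 5 of the 9 depletions. It reached 9.01 and 9.07 with Rrp46, a difference from GFP of 0.98 ± 0.20 or 1.98-fold (adjusted p = 0.0022 in limma). With Rrp40 it read 8.88 and 8.90, a difference of 0.83 (1.78-fold, limma adjusted p = 0.007). With Mtr3 it read 8.68 and 8.89, a difference of 0.73 (1.66-fold, limma adjusted p = 0.016). With Rrp4 it read 8.72, 8.75, 8.75 and 8.58, a difference of 0.65 ± 0.17 (1.57-fold, limma adjusted p = 0.013). With Ski6 it read 8.74 and 8.67, a difference of 0.65 (1.57-fold, limma adjusted p = 0.026). All arrays of these 5 groups were above both GFP arrays.

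The remaining 4 groups were Csl4, Dis3, Rrp6 and Rrp47, with levels of 8.14 to 8.50, which lay between the GFP arrays or just above the second. Their differences from GFP were 0.32 for Csl4, 0.27 for Dis3, 0.24 for Rrp6 and 0.19 for Rrp47, and limma's adjusted p was 0.3, 0.38, 0.53 and 0.56. The 5 calls stand beside high backgrounds. The share of all probe sets called was 19.8% for Rrp46, 20.3% for Rrp40, 18.9% for Mtr3, 23.7% for Rrp4 and 22.7% for Ski6. Among the uncalled groups it was 18.6% for Csl4, 21.1% for Dis3, 8.96% for Rrp6 and 20.3% for Rrp47.

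The depletions also differed from each other in Sting. An F test over the 9 depletion means gave an adjusted p of 0.014 in limma, where 57.5% of all probe sets passed. The GFP mean does not enter it, but the GFP arrays add to the spread it uses. Group means ran from 8.24 with Rrp47 to 9.04 with Rrp46. This range of 0.80 is modest, at the 33.6th percentile of all probe sets tested, whose median range was 1.00. Below Rrp46, Rrp40 overlapped Mtr3, and Mtr3 overlapped Ski6 and Rrp4, in a chain that a step of 0.33 separated from Csl4 and the other groups near GFP.

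The size of the Sting change rests on the first GFP array, as that of Nazo does. Without it the mean difference fell to 0.16 (limma adjusted p = 0.6), and without the second GFP array it was 0.92 (0.00067). The call for Rrp46 held whichever single array was left out, with differences of 0.60 to 1.36 and limma adjusted p of 1e-04 to 0.048. The calls for Rrp40 (0.45, limma adjusted p = 0.14), Mtr3 (0.35, 0.28), Rrp4 (0.27, 0.35) and Ski6 (0.27, 0.4) were lost without the first GFP array. The Mtr3 call was also lost without the second Mtr3 array, and the Ski6 call without either Ski6 array.

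**Figure D3:**
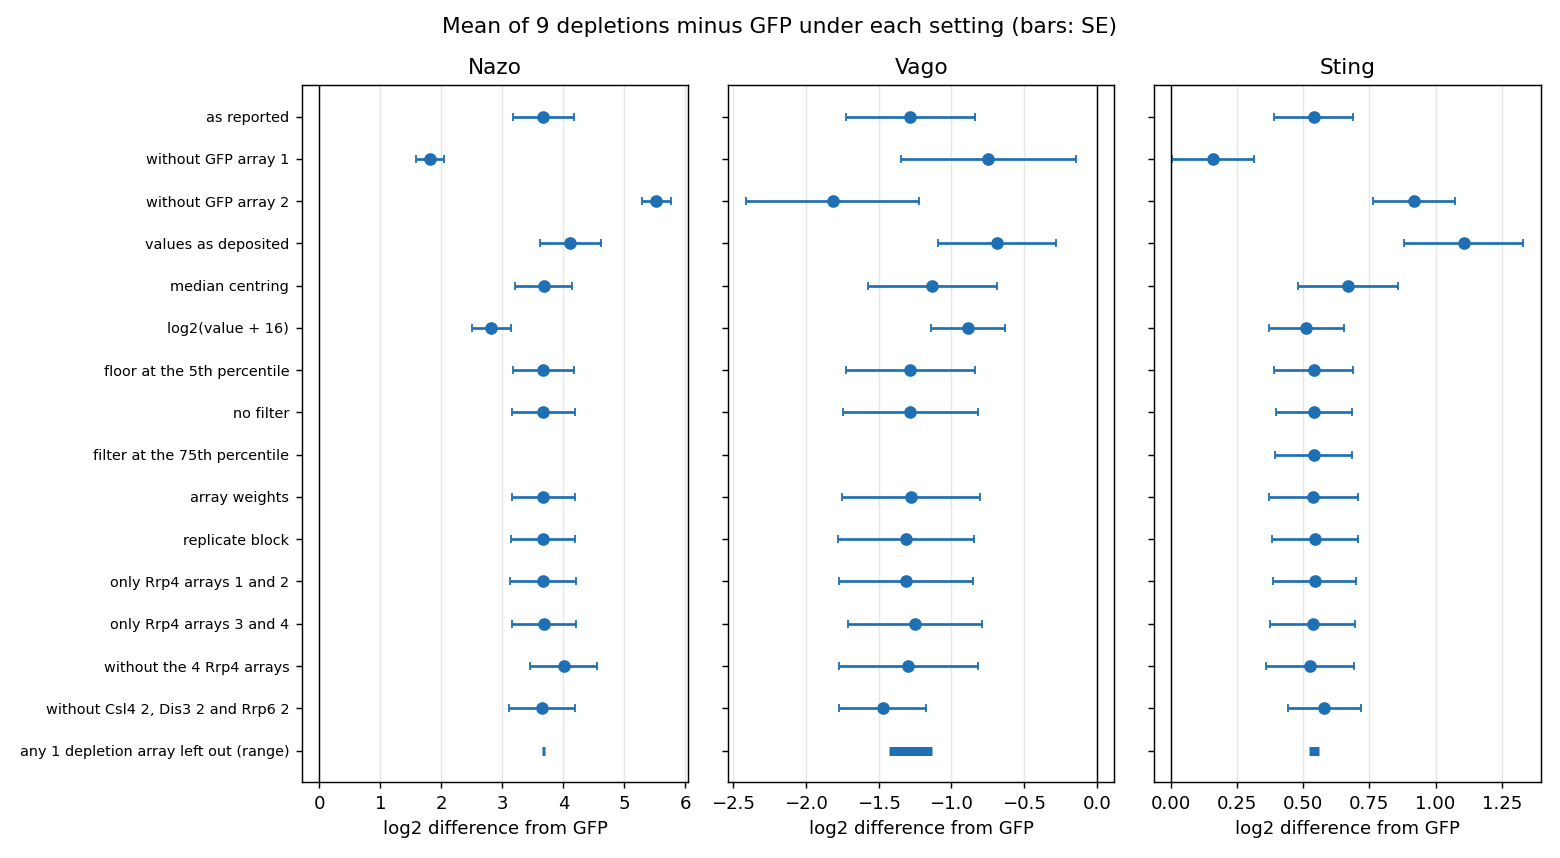
Points are the log2 difference between the mean of 9 depletions and GFP for Nazo, Vago and Sting under each setting (y axis), with bars for the SE and, in the last row, the range when any 1 depletion array is left out; each panel has its own x axis. Leaving out a GFP array moves Nazo between 1.82 and 5.52 and Sting between 0.16 and 0.92, while no depletion array moves either as far.

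The other genes of these pathways were followed in 8 lists, with the 3 members left out. Of 78 listed genes 52 were tested, the rest being too dim or having no probe set of their own in the annotation. Over the mean of 9 depletions 13 rose, 9 fell and 30 did not pass the test. The number that fell was 2 without the first GFP array and 3 without the second. Of the 13 that rose, 3 (cGlr2, TotC and Def) had a GFP mean under the filter level, so they entered the test through the depletions alone and their rise follows in part from the filter. The median difference was -0.01 over the listed genes tested and -0.03 over all probe sets, and the shares called over all probe sets were 11.7% higher and 10.3% lower. The same shares stand beside the count of each list below, and nothing is read from a count near them.

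Upstream and downstream of Sting, 5 of 8 genes were tested and 3 rose. cGlr2, a cGAS-like receptor that makes the ligand of Sting, rose most, by 2.47 ± 0.43 (limma adjusted p = 0.00049). Its GFP mean of 3.55 was under the filter level, so cGlr2 passed the filter only through the depletions. Its rise and its calls follow in part from that, and the size depends on dim readings. Its GFP arrays read 2.27 and 4.82, and 18 of 20 depletion arrays were above both. It was higher in 8 of 9 depletions, with group means of 5.78 to 6.70. The exception was Rrp6, with a mean of 3.98 and a difference of 0.43 (limma adjusted p = 0.73). Rel, which encodes Relish, rose by 0.77 ± 0.16 (limma adjusted p = 0.0016), and IKKbeta by 0.58 ± 0.14 (limma adjusted p = 0.0056).

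Rel was higher in 6 depletions and IKKbeta in 5, and neither passed the test in Dis3, Rrp6 or Rrp47. Without the first GFP array the Rel difference was 0.64 (limma adjusted p = 0.069). Without the second, that of IKKbeta was 0.33 (0.22) and that of cGlr2 was 1.20 (0.049). The other tested genes were key, the partner of IKKbeta, at 0.16, and Srg1, a Sting-regulated gene, at 0.62. Neither of these passed the test. The second receptor gene, cGlr1, and Srg2 were below the filter.

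The Imd pathway shares Relish with Sting. Among its 9 tested genes of 12, 1 rose and 1 fell, where 11.7% of all probe sets were called higher and 10.3% lower. The gene that rose was pirk, an inhibitor of Imd signalling, by 1.45 ± 0.17 (limma adjusted p = 6.6e-06), and it was higher in 8 of 9 depletions, the exception being Rrp6. The adaptor gene Fadd had a difference of -0.44 ± 0.15 (limma adjusted p = 0.043), which was not called without either GFP array (0.053 and 0.43) and was 0.08 with the values as deposited.

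All 6 tested antimicrobial peptide genes, of 15 listed, rose, though Def passed the filter only through the depletions and Listericin did not pass it. Metchnikowin (Mtk) rose by 2.28 ± 0.32 (limma adjusted p = 5.1e-05), Defensin (Def) by 2.04 ± 0.44 (0.0027) and Drosomycin (Drs) by 1.80 ± 0.23 (2.5e-05). DptB rose by 1.44, AttD by 1.14 and CecB by 1.13. Mtk, Drs, AttD and CecB were above both GFP arrays on 20 of 20 depletion arrays. All 6 were higher in Csl4, Mtr3, Ski6 and Rrp6, while 1 of 6 passed the test in Dis3. The Rrp6 arrays disagreed, with 6.77 and 8.83 for Mtk and 10.58 and 12.54 for DptB. All listed genes called higher in Rrp6 numbered 6, against 0 with array weights, 1 with only GFP and Rrp6 in the fit and 1 without the second Rrp6 array. The Def call was lost without the second GFP array (limma adjusted p = 0.13) and that of DptB without the first (0.099).

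Dcr-2, through which Vago is known to be induced, had a difference of 0.21 (limma adjusted p = 0.65). Where 11.7% of all probe sets were called higher and 10.3% lower, 0 of 5 tested genes of antiviral RNA interference rose and 1 fell. That gene was r2d2, the partner of Dcr-2, at -0.62 ± 0.20 (limma adjusted p = 0.037). It was not called without either GFP array (0.31 and 0.096). AGO2 has no probe set of its own in the annotation used. In the JAK-STAT branch 3 of 6 tested genes rose: the stress peptide gene TotC by 2.20 ± 0.43 (limma adjusted p = 0.0012), the transcription factor gene Stat92E by 0.91 ± 0.23 (0.0092) and the phosphatase gene Ptp61F by 0.41 ± 0.13 (0.03). None of these 3 was called without the first GFP array, with limma adjusted p of 0.12, 0.35 and 0.14. TotC was at the floor on 1 of the 2 GFP arrays and passed the filter only through the depletions, so its size depends on the floor. A second probe set of Ptp61F had a difference of 0.19 (limma adjusted p = 0.33).

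Autophagy, which Sting is known to trigger, had 16 of 17 genes tested, of which 0 rose and 6 fell. Atg14 fell by 0.69 (limma adjusted p = 3.2e-05) and Atg12 by 0.64 (0.0016), each below both GFP arrays on 20 of 20 depletion arrays. Atg5 (-0.47), Atg8a (-0.37), Atg7 (-0.37) and Atg4a (-0.36) passed the test too. Without the first GFP array Atg5, Atg8a, Atg7 and Atg4a lost the call (limma adjusted p of 0.067 to 0.32), and without the second Atg5, Atg8a and Atg7 did (0.26 to 0.35). On the deposited scale 0 autophagy genes were called lower and 5 higher. With median centring 3 were called lower (Atg8a, Atg12 and Atg14) and 0 were higher. As deposited, Atg5 (0.12), Atg7 (0.19) and Atg4a (0.09) changed sign too, against a median of all probe sets of 0.46. Of 4 tested genes of fatty acid synthesis, another process tied to fly Sting, 0 were called. Among genes that restrict viruses, pst had a difference of -0.50 ± 0.12 (limma adjusted p = 0.0057) and the other 3 tested did not pass. The pst call was lost without either GFP array (0.063 and 0.062), and the difference was -0.14 with the values as deposited.

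The background given above for each depletion takes both directions together, and its split was not counted on normalized values. The number of listed genes called differed between depletions, as did that background. It was 18 higher and 6 lower in Rrp4, 15 and 6 in Rrp40, 13 and 8 in Ski6, 12 and 6 in Mtr3, and 12 and 5 in Rrp46. It was 10 and 6 in Csl4 and in Rrp47, 6 and 1 in Rrp6, and 3 and 3 in Dis3. Over the other settings on normalized values, the count higher ranged over 10 to 23 in Rrp4, 8 to 23 in Rrp40, 10 to 18 in Ski6, 9 to 18 in Mtr3 and 7 to 22 in Rrp46. It ranged over 5 to 15 in Csl4, 5 to 12 in Rrp47, 0 to 8 in Rrp6 and 2 to 8 in Dis3, so groups near each other have no settled order. As deposited it was 52 in Rrp4, 41 in Mtr3 and 40 in Ski6, each with 0 lower. These comparisons share the 2 GFP arrays.

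**Figure D4:**
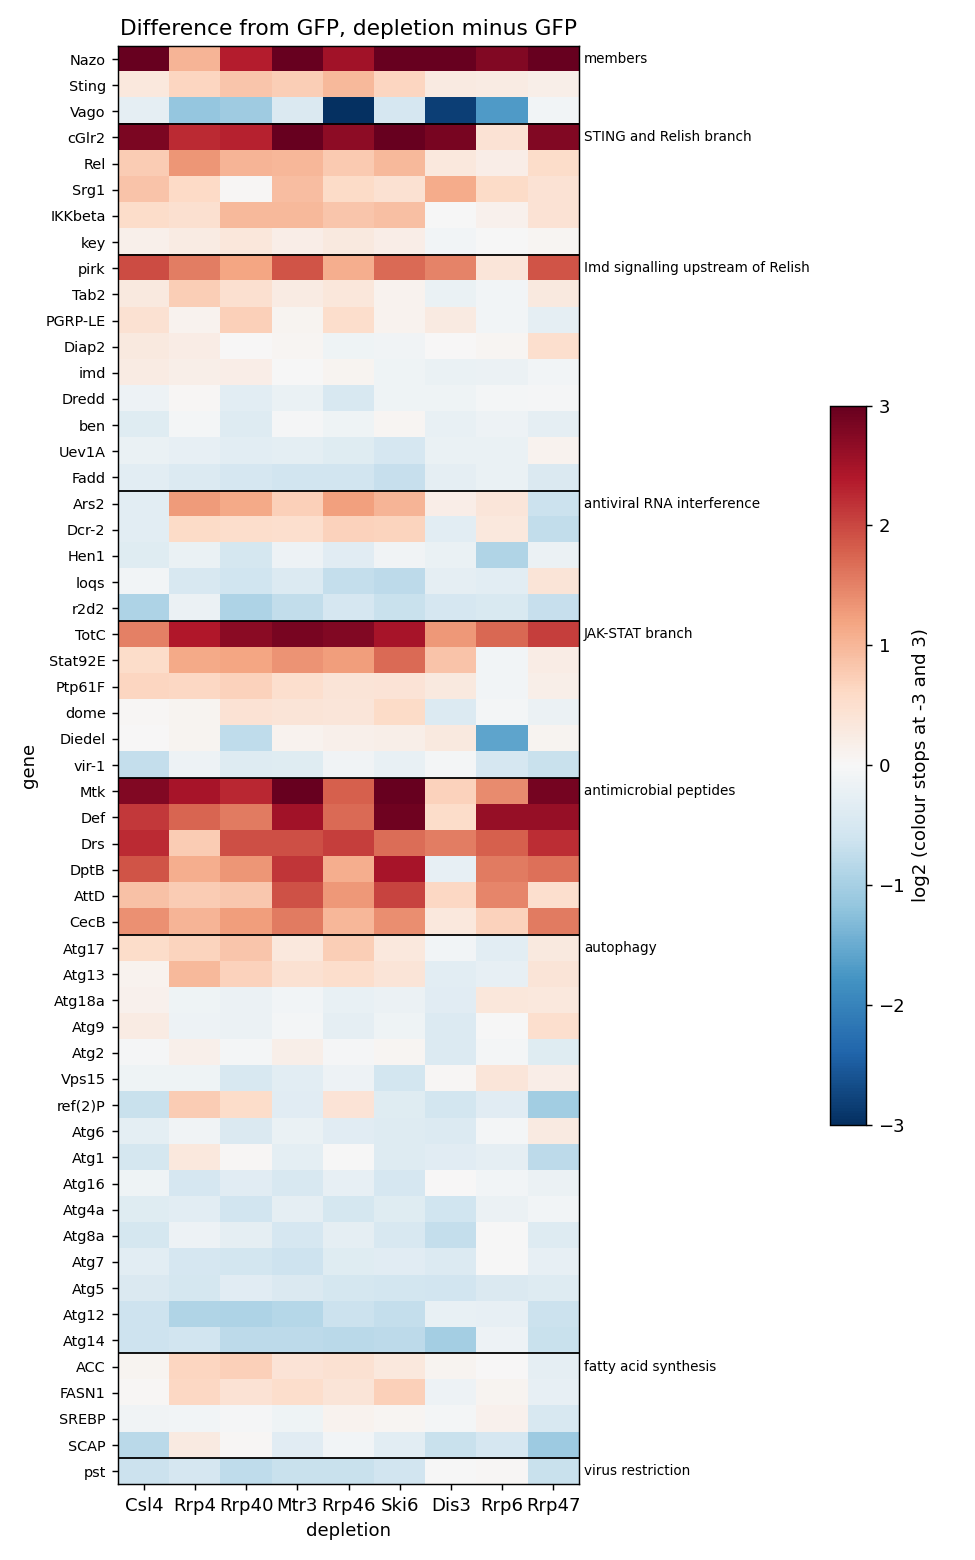
Rows are the 3 members and the 52 tested genes of the lists, each shown once, columns are the 9 depletions, and colour is the log2 difference from GFP, which stops at -3 and 3. The antimicrobial peptide genes, cGlr2, pirk and TotC are red in most columns, the autophagy genes are mostly pale blue, and Vago is dark blue in Rrp46 and Dis3.

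Cell type markers moved as well over the mean of 9 depletions, where 11.7% of all probe sets were called higher and 10.3% lower. Of 7 tested hemocyte markers 3 rose and 1 fell, and their summed normalized signal was 22560 to 30200 on the GFP arrays and 13660 to 33040 on the depletion arrays. Of 2 tested crystal cell markers 1 rose, and their sum was 17.48 to 38.99 against 63.79 to 556.9. Of 2 tested germline markers 1 rose (bam, by 2.27, limma adjusted p = 6.3e-05), and their sum was 264.6 to 364.3 against 232.4 to 493.2. The fat body, where Vago is known to act, was represented by 1 tested marker of 4, whose signal was 52.43 to 70.77 against 10.36 to 82.39. The rising hemocyte markers Pxn and He, the crystal cell marker PPO1 and bam had GFP means under the filter level (4.67). They entered the test through the depletions alone, and their rise follows in part from the filter. The part of the marker shifts in the levels of Nazo, Vago and Sting was not tested.

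The genes most like each member were taken by Pearson's r over the 10 group means of log2 level, among 7825 probe sets with 1 symbol. They are named as a description, without a test. Nearest to Nazo were Ada (0.97), SNRPG (0.964), CG44251 (0.962), png (0.959) and COX7C (0.955), with r of 0.71 to 0.916 over the 22 arrays. SNRPG encodes a core protein of spliceosomal particles and COX7C a subunit of cytochrome c oxidase. Their depletion means ranged over 0.67 and 0.64, against 4.53 for Nazo.

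Nearest to Vago were Rsph3 (0.951), CG17376 (0.923), CG1750 (0.917), Ns4 (0.909) and Vha14-1 (0.909), with r of 0.578 to 0.768 over the arrays. Nearest to Sting were NAT1 (0.959), Msh6 (0.954), Idgf1 (0.953), pps (0.951) and Iswi (0.948), with 0.852 to 0.916 over the arrays. Iswi encodes a chromatin remodelling ATPase and Msh6 a DNA mismatch repair protein. Depletion means of NAT1 ranged over 0.89 and those of Iswi over 1.30, comparable with 0.80 for Sting.

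Of the nearest protein-coding neighbours on the chromosome, taken by position, 2 passed the test, in a comparison where 21.9% of all probe sets were called. Nothing is read from this count. Beside Nazo, ato and CG9630 had differences of -0.48 and -0.39 (limma adjusted p = 0.13 and 0.095), and CG11672 and CG31464 were below the filter. Beside Vago, CG2076 had a difference of -0.50 ± 0.10 (limma adjusted p = 0.0011) and CG2061 of -0.13 (0.65), and CG15203 and sev were below the filter. Beside Sting, Marc rose by 1.25 ± 0.20 (limma adjusted p = 2e-04), while Vamp7 had a difference of 0.00 (0.99) and Prosalpha7 of -0.08 (0.69). Orc6 had no probe set of its own.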

How the data were processed

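The authors deposited linear intensities per probe set, with GCOS named in the submitters' processing notes; its version is not given in the sources used here. From these, all 22 arrays were quantile normalized, floored at the 10th percentile (a signal of 3.216) and taken as log2. Precision is limited by the number of arrays. After 183 controls were left out, probe sets whose mean log2 signal reached the median (4.67) were kept, 9385 in all. Their 10 group means were fitted with limma 3.58.1 (lmFit and eBayes, trend) under R 4.3.3, with 12 degrees of freedom for the residuals. Tests were two-sided and Benjamini-Hochberg adjusted p under 0.05 within a comparison was called. Scripts were tested on simulated data. Genes were named from the platform annotation, the brightest probe set standing for a gene. Text names the members, up to 3 highest and 3 lowest called genes of a list, the pathway heads, and the 5 most alike genes; neighbours and a few uncalled genes were added after their values were seen. The members and lists were chosen with earlier results of these data known. Alternatives covered scaling, floor, filter, weights, samples and replicate numbers.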

Additional observations from a re-analysis of the deposited data

Results flagged for a closer look

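The differences in Sting level among the 9 depletions passed the F test (limma adjusted p = 0.014), as did 57.5% of all probe sets. The range of its depletion means was at the 33.6th percentile of all probe sets tested. Among the 4 Rrp4 arrays, 1 array stood far from the others for 3 genes of 55 examined, by the gap to the nearest array as a share of the whole range, above Dixon's critical value for 4 samples. This share was 0.945 for IKKbeta, whose levels ran from 8.20 to 8.52 with a median of 8.50. It was 0.882 for pirk, with levels of 9.74 to 10.02 and a median of 9.77. It was also 0.882 for Atg6, with 8.54 to 8.86 and a median of 8.83. Chance gives such a reading in about 1 in 20 groups. For Nazo the share was 0.663, for Vago 0.609 and for Sting 0.792, all below the critical value.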

How the results depend on the processing

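Of 575 values recomputed for the members and for the list counts over the mean of 9 depletions, 504 kept their call or stayed within the spread between replicates (counts, within 1.5 times), 51 moved further, 2 turned direction, 3 gained a call and 15 lost one. Nazo in Rrp4 turned direction without the first GFP array (-0.84), and Vago in Rrp4 with the values as deposited (0.49). Without the first GFP array Vago in Csl4, Mtr3, Rrp47 and Ski6 and Sting in Csl4, Dis3, Rrp6 and Rrp47, all small differences, also changed sign. The values as deposited also moved Nazo in Mtr3 to 6.19, in Rrp4 to 2.57 and in Ski6 to 6.51, Vago in Mtr3 to 0.66 and in Ski6 to 0.68, and gave Sting a call in Rrp47 (0.78, limma adjusted p = 0.046). They gave 28 listed genes higher and 0 lower, where quantile normalization gave 13 and 9; that scaling moves the median of all probe sets by 0.46. With log2(value + 16), which shrinks dim values, Nazo was 3.41 in Csl4, 3.94 in Dis3, 4.30 in Mtr3, 1.55 in Rrp40, 1.71 in Rrp46, 3.46 in Rrp47, 1.95 in Rrp6, 4.60 in Ski6 and 2.82 in the mean, and Vago was -1.73 in Dis3 and -2.12 in Rrp46. Without the second Csl4, Dis3 and Rrp6 arrays Vago in Dis3 was -4.14, and 22 listed genes were higher and 14 lower. Listed genes called lower were 4 with array weights, 4 with median centring and 5 with no filter; the causes were not tested. With only the 2 groups compared in the fit, Sting was not called in Mtr3 (0.73, limma adjusted p = 0.14), Rrp40 (0.83, 0.077), Rrp46 (0.98, 0.059) or Ski6 (0.65, 0.14). With only Rrp4 arrays 3 and 4 it was 0.61 in Rrp4 (0.069). Nazo and Vago lie below a filter at the 75th percentile, and no member had another probe set to try. With the other probe set of Ptp61F, the 1 listed gene with a second above the filter, 12 listed genes were higher and 9 lower. Without the 4 Rrp4 arrays, chosen after seeing the data, the mean differences were 4.0 for Nazo, -1.30 for Vago and 0.53 for Sting (limma adjusted p = 0.04), and 12 listed genes were higher and 7 lower.

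Leaving out 1 array at a time, Nazo ranged over 1.82 to 5.52 in the mean, 2.48 to 6.18 in Csl4, 3.02 to 6.73 in Dis3, 3.38 to 7.09 in Mtr3, -0.84 to 2.87 in Rrp4, 0.50 to 4.20 in Rrp40, 0.67 to 4.37 in Rrp46, 2.52 to 6.23 in Rrp47, 0.93 to 4.64 in Rrp6 and 3.69 to 7.40 in Ski6. Vago ranged over -1.82 to -0.74 in the mean, -4.14 to -1.51 in Dis3 and -4.02 to -2.94 in Rrp46. Sting ranged over 0.16 to 0.92 in the mean, -0.058 to 0.70 in Csl4, -0.11 to 0.65 in Dis3, 0.35 to 1.11 in Mtr3, 0.27 to 1.03 in Rrp4, 0.45 to 1.21 in Rrp40, -0.19 to 0.56 in Rrp47, -0.14 to 0.62 in Rrp6 and 0.27 to 1.03 in Ski6. Listed genes called ranged over 10 to 14 higher and 2 to 11 lower, with 2 lower without the first GFP array and 3 without the second. The F test of Sting gave adjusted p of 0.0021 to 0.04.

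Replicate numbers are shared across groups, but 8 of 90 correlations of residuals between same-numbered arrays were over 0.1 (median -0.024), so the numbers were not taken as pairs. With the replicate number as a block, Sting in Rrp4 (0.68, limma adjusted p = 0.055) and in Ski6 (0.65, 0.051) was not called, the F test gave 0.046 and the mean differences were 3.66 for Nazo, -1.31 for Vago and 0.54 for Sting (0.03). Listed genes were then 12 higher and 8 lower.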
